A study of Arabidopsis thaliana with 12 samples.

Results

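The 219 genes described here are cytochrome P450 genes of Arabidopsis thaliana, taken as the protein-coding genes of chromosomes 1 to 5 whose RefSeq symbol is CYP followed by a number, a letter and a number. The rule itself uses names and no methylation value, although it was set with earlier results of these data known, and it picks them out of 27444 protein-coding genes and 37899 annotated genes on these chromosomes. The rule misses 15 protein-coding P450 genes that carry a CYP name only as a synonym, such as PAD3 and GA3. It also leaves out 12 P450 loci listed as pseudogenes and 5 protein-coding genes whose symbol ends in P, as well as AOS and CYP718, which the pattern of letters and numbers does not match.

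The study profiled cytosine methylation in leaves of Col-0 plants (spelled Col-O in the labels) after treatment with salicylic acid in chitosan nanoparticles (SA-CNPs) or inoculation with the powdery mildew fungus Podosphaera xanthii. Of 12 libraries with a labelled treatment, 4 are Control, 4 are SA-CNPs and 4 are pathogen, and all come from the same wild-type ecotype with no transgene or mutation named. The paper also describes plants given both treatments, a group that none of the 12 labels names. Which of them make up the merged CpG table is not given in the sources used here, so every value below belongs to 1 pooled sample of unknown condition. No treatment was compared with another, no value has a replicate error, and no test was run.

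Cytochrome P450s are heme enzymes that insert oxygen into small molecules, with electrons delivered in most plant cases by P450 reductases. In plants they form one of the largest enzyme families and act in the synthesis of sterols, carotenoids, lignin precursors, cutin and hormones, in the inactivation of hormones, and in lineage-specific defence compounds such as glucosinolates, camalexin and triterpenes. A family number groups related sequences, a letter marks the subfamily, and many subfamilies lie in tandem arrays. CpG methylation within a plant gene occurs in 2 known settings, as body methylation confined to CpG sites in the middle of many genes, often broadly expressed ones, and as the dense methylation of transposons and silenced genes, which also covers non-CpG cytosines. Only CpG sites were measured here, so these settings were not separated.

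Coverage was even across the P450 genes. Of 31235 CpG cytosines in their bodies, 31179 were covered, with a median of 58 reads, equal to the median over all covered nuclear cytosines. The gene medians ran from 38 to 66 reads, and the lowest were 38 in CYP706A2 and 39 in CYP706A1, neighbours on chromosome 4. These neighbours also held 25 and 28 of the 56 uncovered cytosines, and every cytosine was covered in 215 genes. Body levels read from each strand separately differed by a median of 0.32 percentage points and by at most 8.87 points, in CYP89A9.

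P450 bodies carried little CpG methylation. In all, 102850 of 1796903 calls in their bodies were methylated, a level of 5.72% (95% Wilson interval 5.69 to 5.76%, which covers counting error only), beside 16.3% over all protein-coding bodies. The median body level over the 219 genes was 1.30% (95% rank interval 0.68 to 2.95%), beside 4.72% (4.456 to 4.997%) over 27194 protein-coding genes with enough covered cytosines. The levels ran from 0.0233% in CYP82C3, with 2 methylated calls of 8594, to 87.0% in CYP705A32. No rate of failed conversion was computed here, so levels below 1% were not separated from failed conversion or read errors. Gene length had a median of 2054 bp in P450 genes and 2078 bp in all protein-coding genes, and the number of CpG cytosines per body a median of 130 and 110.

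A body level of 10% or more was found in 49 P450 genes (22.4%), beside 40.3% of all protein-coding genes. At 20% or more there were 23 (10.5%, beside 26.6%), and at 50% or more 3 (1.37%, beside 5.82%). At the other end, 101 P450 bodies (46.1%) lay below 1%, beside 39.2% of all genes. With 1000 bp on either side included, the median was 3.95% (2.84 to 5.49%), beside 8.79%, and 65 genes (29.7%) reached 10%, beside 46.8%. The body, the lower flank and the higher flank were all below 1% in 56 P450 genes (25.6%), beside 19.6%, and all below 10% in 107 (48.9%), beside 36.2%.

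The profile around gene ends located these levels. Within 200 bp inside the nearest gene end, P450 genes were methylated at 3.36%, and 800 to 1000 bp inside at 7.07%, beside 6.69% and 18.7% in all protein-coding genes. Outside the gene, P450 levels were 5.84% in the nearest 200 bp and 10.3% at 800 to 1000 bp, beside 7.51% and 15.3%. In percentage points, the 2 profiles thus lay closest together in the nearest 200 bp outside the gene and furthest apart 800 to 1000 bp inside. The bins do not hold the same genes, however. The first 200 bp inside held 212 P450 genes and 26432 of all protein-coding genes, and the innermost bin 197 and 16520. The part of this loss of genes in the wider gap was not tested. The annotation used here gives neither strand nor exons, so both ends are pooled, flanks are named by coordinate, and whether a methylated site is exonic, intronic or in a UTR is not given.

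**Figure D1:**
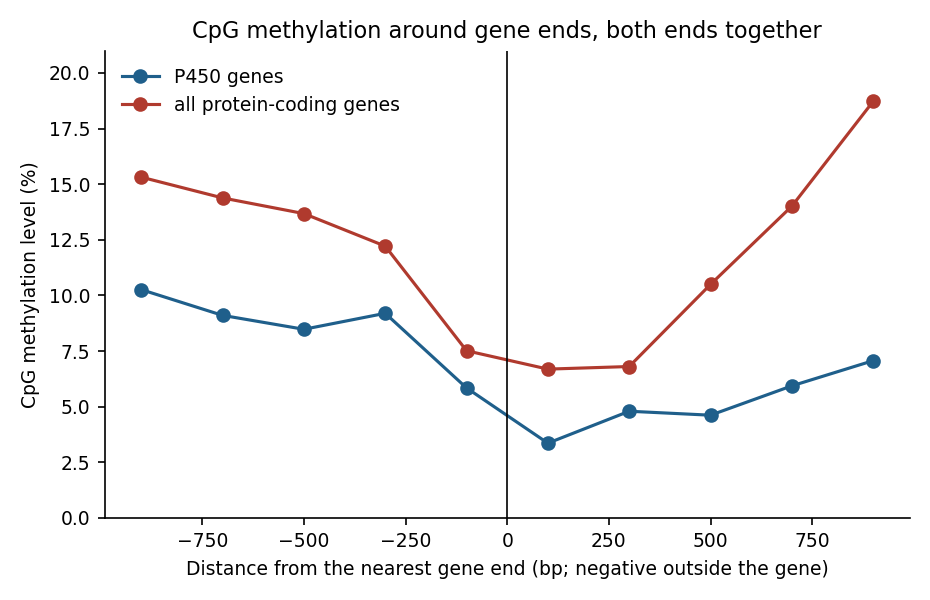
CpG methylation level (methylated calls over all calls of the bin, %, y axis) in bins of 200 bp against the distance from the nearest gene end in bp (x axis, negative values outside the gene), for the P450 genes and for all protein-coding genes. The P450 line lies below the other in every bin, with 7.07% (197 genes) against 18.7% (16520 genes) in the innermost bin.

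Family medians covered a wide range. The 40 family numbers include 14 with at least 5 genes, which together hold 170 of the 219. Bodies at 10% or more made up 22.4% of P450 genes and 40.3% of all protein-coding genes. No reference for whole families was computed. CYP71, the largest with 48 genes, had a median body level of 1.59% (rank interval 0.62 to 5.01%) and 9 bodies at 10% or more. CYP705, a family of the mustard lineage with 24 genes, had a median of 3.98% (1.09 to 11.2%) and also 9 such bodies, among them the 2 highest of all P450 genes. The highest median of the 14 belonged to CYP72 (13.7%, 9 genes, 6 at 10% or more), and these 6 lie in 1 array. In CYP96, whose member CYP96A15 hydroxylates wax alkanes, levels ran from 0.179 to 8.83% with a median of 3.86%, and none of its 12 genes reached 10%.

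Other families were nearly free of CpG methylation. All members lay below 1% in 4 of the 21 families with at least 3 genes, namely CYP78, CYP707, CYP710 and CYP77. Counted by gene, bodies below 1% made up 46.1% of P450 genes and 39.2% of all protein-coding genes. In CYP86, the 5 CYP86A genes, several of which make the hydroxylated fatty acids of cutin and suberin, ran from 0.0799 to 2.95%. The 4 CYP86C genes ran from 3.83% in CYP86C1 to 34.9%, and CYP86B1 was at 0.288%. CYP79, whose characterised members turn amino acids into aldoximes, held 5 genes between 0.219 and 1.11% and 2 far above them, CYP79C2 at 51.8% and CYP79A2 at 39.7%. CYP97 was high in both of its genes, with CYP97A3 at 25.9% and CYP97B3 at 41.9%.

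**Figure D2:**
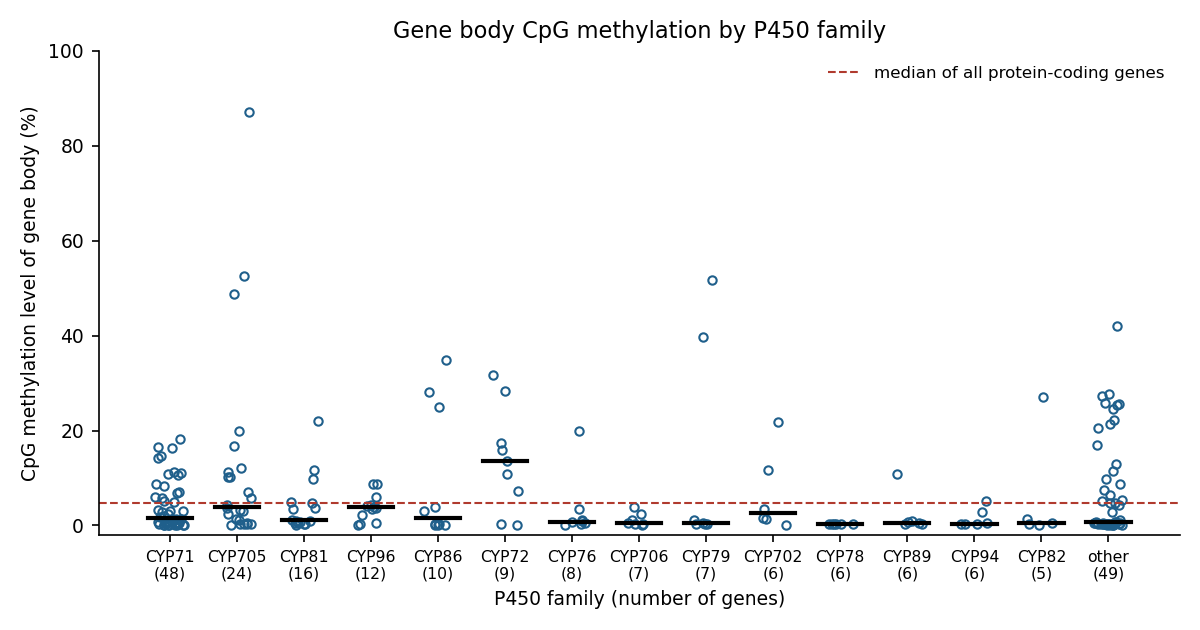
CpG methylation level of the gene body (%, y axis) for each of the 219 P450 genes, by family (x axis, number of genes in brackets). Circles are genes, black bars are family medians and the dashed line is the median of all protein-coding genes (4.72%). Most circles sit near 0, CYP72 has the highest bar of the 14 families drawn, at 13.7% (families with fewer than 5 genes are in the last column), and a few single genes stand far above their family.

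The most methylated bodies had unlike shapes. CYP705A32 (AT3G20950, chromosome 3, 7342675 to 7344744) had 4994 methylated calls of 5739, 87.0% (86.1 to 87.9%), with 93.3% of its 120 cytosines above 75%. A run of 130 cytosines, each at 25% or more with a median of 90.8%, reached from 7342239, before its lower end, to 7344591 and covered 116 cytosines of the body. Runs of this kind, of at least 10 neighbouring cytosines with gaps of at most 500 bp, were found in the body or flanks of 90 P450 genes (41.1%), beside 54.7% of all protein-coding genes. They made up 116 distinct runs, of which this was the longest within the DNA measured. CYP705A28 (AT3G20935, chromosome 3, 7334179 to 7336013), in the same array, reached 52.4% (51.2 to 53.7%) in separate blocks with unmethylated DNA between them, and its flanks were at 1.10 and 0.386%. This gene model overlaps the neighbouring gene AT3G20930, which was at 6.55%. CYP705A27 (AT1G50520, chromosome 1, 18719378 to 18721219) was at 48.7% (47.4 to 50.1%) with a lower flank at 57.4%. No role is given here for these CYP705A genes.

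CYP79C2 and CYP79A2 combined a methylated end with an unmethylated one. CYP79C2 (AT1G58260, chromosome 1, 21605752 to 21607995) had 51.8% (50.8 to 52.7%) in its body and 85.6% in its higher flank, beside 0.568% in its lower flank. The run of 74 cytosines across its higher end had a median of 109 reads, beside the nuclear median of 58, and the part of this depth in the level was not tested. CYP79A2 (AT5G05260, chromosome 5, 1559608 to 1561802) makes the aldoxime of benzyl glucosinolate from phenylalanine. It was at 39.7% (38.7 to 40.7%), and a run of 78 cytosines reached from 1559015, before its lower end, to 1560391 inside it. Divided into 5 equal parts from the lower end, its body was at 89.6, 92.1, 0.447, 0.092 and 17.7%.

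In CYP86C genes methylation lay mainly inside the body. CYP86C4 (AT1G13150, 34.9%, 33.6 to 36.3%, flanks 5.79 and 0.353%) and its neighbour CYP86C3 (AT1G13140, 25.03%) formed 1 of 3 arrays in which every body was at 10% or more. CYP86C2 on chromosome 3 was at 28.1% with a run of 44 cytosines in its interior, and its higher flank was at 12.1%. CYP86C1 was lower, at 3.83% with flanks of 1.36 and 0.466%. In CYP86C4 the 5 equal parts from the lower end were at 0.137, 0.322, 65.3, 69.0 and 0.716%. In all, 25 P450 genes (11.4%) had a body at 10% or more with both flanks below 10%, beside 17.1% of all protein-coding genes, and 24 (11%) had both a body and a flank at 10% or more, beside 23.1%.

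Many P450 genes lie in arrays. With at most 1 other protein-coding gene between neighbours, 125 genes formed 37 arrays, 21 of them pairs and 7 with at least 5 genes, and 94 genes stood outside. With no other protein-coding gene allowed between neighbours, 107 genes were in arrays. The median body level was 1.38% (0.98 to 3.22%) inside arrays and 0.81% (0.43 to 3.73%) outside, and these intervals overlapped. Genes of 1 array share sequence, and their flanks can be the same DNA. In 9 arrays every body lay below 1%, in 15 at least 1 body reached 10%, and in 12 the highest and the lowest body were more than 10 points apart. Of all P450 bodies, 46.1% lay below 1% and 22.4% at 10% or more, beside 39.2 and 40.3% of all protein-coding genes. No reference for whole arrays was computed, so these counts only describe the arrays.

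The largest array, 9 genes from CYP71B16 to CYP71B24 on chromosome 3 (9565627 to 9599988), had bodies of 5.01% or less. They were at 0.356% in CYP71B16, 0.657% in CYP71B17, 3.12% in CYP71B19, 0.174% in CYP71B20, 0.777% in CYP71B21, 0.278% in CYP71B22, 0.160% in CYP71B23, 0.171% in CYP71B3 and 5.01% in CYP71B24. Only the bodies of CYP71B19 and CYP71B24 exceeded 1%. The DNA between the genes was at 7.88%, with higher levels on both sides of CYP71B19 (30.3 and 52.8%) and in the higher flank of CYP71B23 (31.4%), where a run of 28 cytosines had a median of 82.8%.

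The CYP72A array on chromosome 3 (4912324 to 4939871, 8 genes in 27548 bp) had the highest pooled body level, 15.5%, of the 7 arrays with at least 5 genes. From the lower end, the bodies were at 15.8% in CYP72A7, 0.216% in CYP72A8, 17.4% in CYP72A9, 28.4% in CYP72A10, 31.7% in CYP72A11, 10.7% in CYP72A13, 7.16% in CYP72A14 and 13.7% in CYP72A15. CYP72A8, between 2 methylated neighbours, was thus the only body below 1%, with 15 methylated calls of 6939. CYP72A9, which hydroxylates gibberellins, had 28.6% of its cytosines between 25 and 75% and only 2.04% above 75%, the highest share of intermediate cytosines of all P450 genes. The DNA between the genes was at 60.1% (59.3 to 60.8%), and it includes AT3G14670, a protein-coding gene outside the family at 94.4% (93.6 to 95.1%), which also makes up part of the higher flank of CYP72A13 (94.5%). Most of the DNA between the genes lies in 1 gap, from CYP72A13 (end 4927607) to CYP72A14 (start 4934330), so 60.1% does not describe every gap. The higher flank of CYP72A14, which spans the gap to CYP72A15, was at 0.557%.

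The array from CYP705A15 to CYP705A23 on chromosome 3 (7007869 to 7030897, 7 genes) showed methylated bodies with unmethylated DNA between them. The bodies were at 10.2% in CYP705A15, 19.9% in CYP705A18, 16.8% in CYP705A19, 0.242% in CYP705A20, 11.2% in CYP705A21, 10.3% in CYP705A22 and 0.22% in CYP705A23, beside 0.383% (0.278 to 0.528%) between the genes. CYP705A20 and CYP705A23 stood apart from the other members of this array, which all reached 10%. The model of CYP705A15, 5826 bp long, overlaps the pseudogene CYP705A16 (12.4%), so its value covers both.

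The widest range within 1 array was that of CYP705A28 to CYP705A33 on chromosome 3 (7334179 to 7347210). CYP705A28 was at 52.4%, CYP705A30 at 1.09%, CYP705A32 at 87.0% and CYP705A33 at 2.37%, beside 5.45% between the genes. The higher flank of CYP705A30 and the lower flank of CYP705A32 were both at 30.6%, since they hold the same cytosines. High and low bodies alternated along this array.

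**Figure D3:**
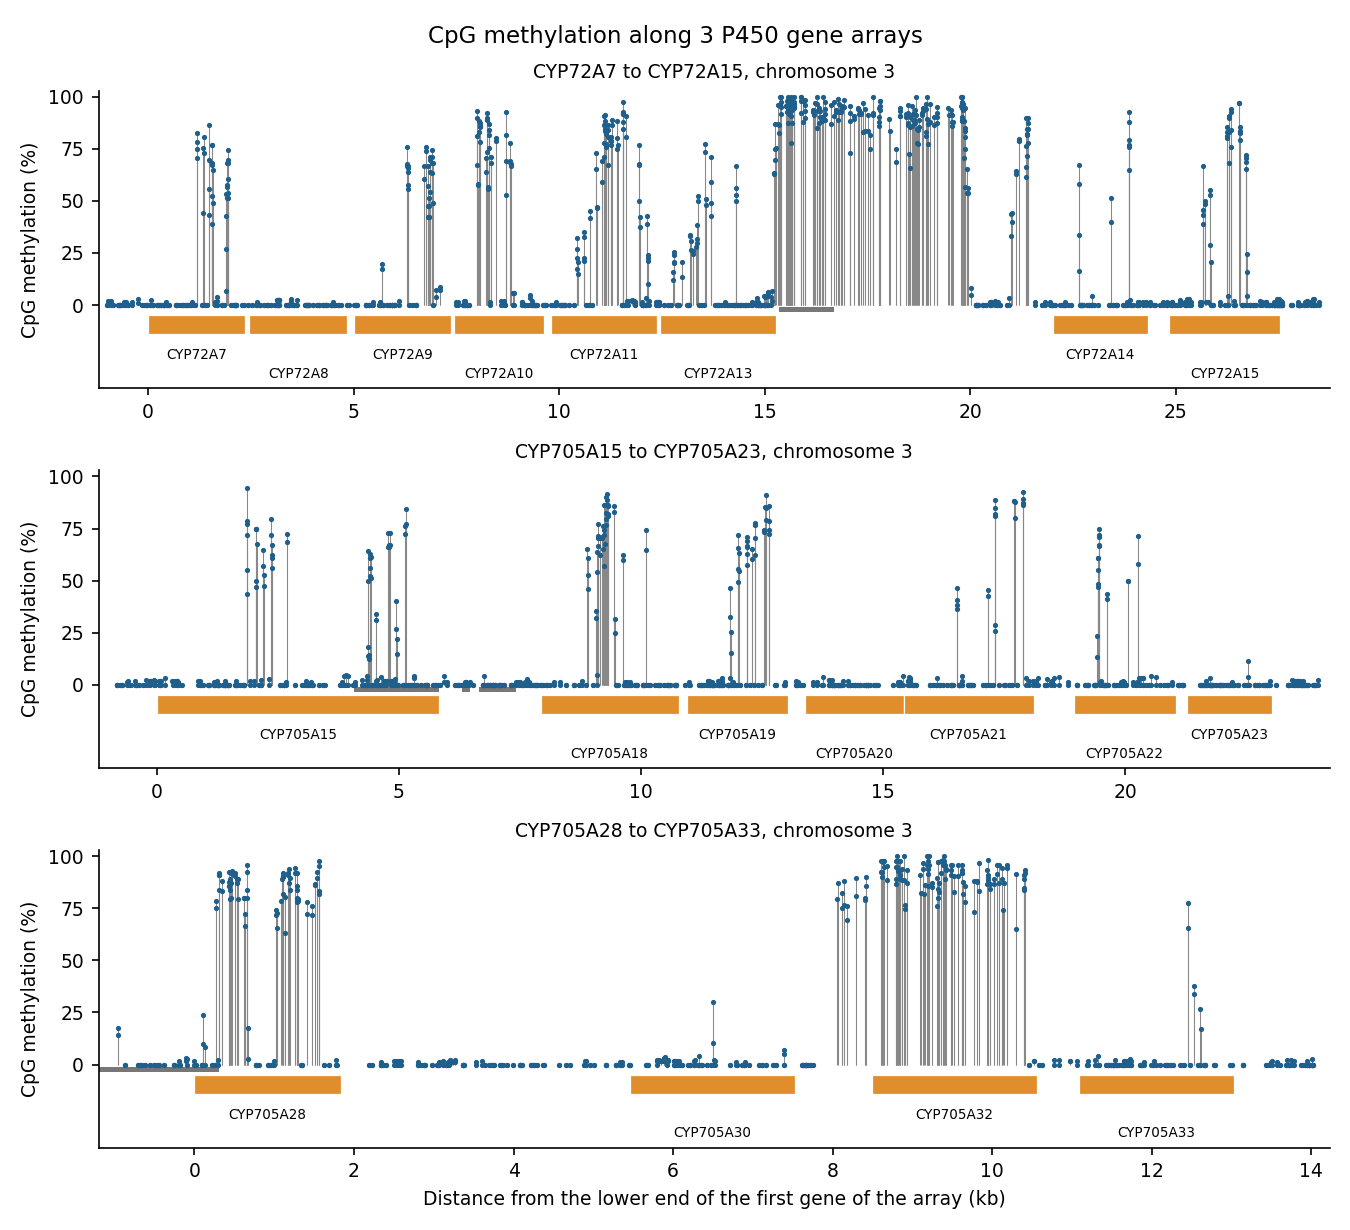
CpG methylation of single cytosines (%, y axis) against the distance from the lower end of the first gene in kb (x axis) in 3 arrays of chromosome 3, with 1000 bp on either side. Orange boxes are P450 genes and thin grey bars other annotated loci. Methylated cytosines lie in short clusters inside most CYP72A and CYP705A15 to CYP705A23 genes, over nearly all of CYP705A32 (87.0%), and over AT3G14670 and the DNA beyond it.

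In some arrays part of the DNA between the genes was more methylated than the bodies. The 4 bodies from CYP706A4 to CYP706A7 lay between 0.202 and 3.79%, beside 43.6% (41.9 to 45.3%) between them, from 48 cytosines. All 1479 methylated calls between these genes lay in the gap from CYP706A5 to CYP706A6. The 3 bodies from CYP71B11 to CYP71B13 lay between 0.162 and 7.05%, beside 38.2% between them, where the noncoding locus AT5G03925 was at 94.7%, and the 3 from CYP89A7 to CYP89A5 between 0.204 and 0.982%, beside 28.8%, with 66.3% in the higher flank of CYP89A6. The array from CYP702A2 to CYP702A6 on chromosome 4 (8 genes of 2 families in 80014 bp) holds the triterpene synthase genes PEN1 (0.849%) and BARS1 (18.8%). Its P450 bodies ran from 0.169% in CYP702A3 to 12.1% in CYP705A4, beside 17.7% between the genes. Likewise, the pair of CYP705A5 (5.82%) and CYP708A2 (9.76%), which modify thalianol, had 12.6% between them, with 68.9% in the last of 5 equal parts of the CYP708A2 body, and the pair of CYP705A12 (3.22%) and CYP71A16 (1.32%), the latter a marneral oxidase, had 25.6%.

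Methylated cytosines in P450 bodies were often methylated in only part of the reads. Of 2344 body cytosines at 25% or more, 1076 (45.9%, 43.9 to 47.9%) lay between 25 and 75%, beside 16.6% (16.5 to 16.7%) in all protein-coding bodies. The intermediate share depends on the level of the gene, so it was also read within bands of body level. It was 85.2% against 68.0% in bodies at 1 to 5%, 72.3% against 45.5% at 5 to 10%, 58.4% against 27.2% at 10 to 20% and 22.7% against 12.7% at 20 to 50%, with P450 genes given first. At least 10% of all body cytosines were intermediate in 27 P450 genes (12.3%), beside 7.77% of all genes. This measure was chosen after the values had been seen, and neighbouring cytosines share reads.

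Single genes stood at both ends. Of 76 P450 genes with at least 10 methylated body cytosines, more than 50% of these were intermediate in 39 (51.3%), beside 12.5% of all protein-coding genes with as many. Every one was intermediate in 13 genes (17.1%, beside 1.75%), such as CYP71A13 (17 of 17 cytosines, body 6.74%), CYP715A1 (23 of 23, body 5.23%), CYP705A22 (16 of 16) and the linalool oxidase gene CYP76C1 (14 of 14). Unlike the bands above, these counts of genes were not matched for body level, and P450 bodies were lower than those of all genes. After CYP72A9, the highest shares over all body cytosines were 20.8% in CYP79C2, 20.3% in CYP72A7, 18.8% in CYP705A18 and 18.5% in CYP705A19. In CYP705A32 the share was 3.33%. The strands were about as close at such sites as in other genes. Over 527 CpG pairs of P450 bodies with a mean level between 25 and 75%, the strands differed by a median of 6.495 points, and in 0 pairs by more than 50 points, beside 6.94 points and 24 of 48882 pairs in all protein-coding bodies. A pool of libraries, cells or gene copies with unlike states gives such intermediate levels too, and these sources cannot be told apart in 1 pooled table.

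Counted over both sides, a methylated flank was more common than a methylated body, but each gene has 2 flanks and 1 body. At least 1 of the 2 flanks of 1000 bp was at 10% or more in 87 P450 genes (39.7%), beside 46.9% of all protein-coding genes, and at 50% or more in 26 (11.9%), beside 18.1%. With flank bases inside other annotated genes left out, the first count was 58, with no share of all protein-coding genes computed for this setting. The median was 0.516% in the lower and 0.564% in the higher flank, beside 0.554 and 0.560% in all genes. A body below 10% with a flank at 50% or more occurred in 18 P450 genes (8.22%), beside 7.49%. Both flanks were at 10% or more in 13 (5.94%), beside 11.2%.

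Dense methylation next to an unmethylated body was clearest in CYP78A7, CYP716A2 and CYP71B36. CYP78A7 (AT5G09970, chromosome 5, 3111945 to 3114239), related to the organ growth gene KLUH, had 0.359% in its body (44 of 12249 calls) and 91.5% (90.5 to 92.5%) in its higher flank, where a run of 54 cytosines reached from 3114296 to 3115044. CYP716A2 (AT5G36140), of a subfamily that oxidises triterpenes, had 0.345% in its body and 82.9% in its lower flank. CYP71B36 (AT3G26320) had 3 methylated calls of 4609 in its body (0.0651%), 74.4% in its lower flank and 39.3% in its higher flank. No annotated locus lies in the flanks of CYP78A7 and CYP716A2 just named, nor in the lower flank of CYP71B36.

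The 10 highest single flanks also include, beside that of CYP72A13, those of CYP71B32 (higher flank 90.9%, body 14.6%), CYP79C2, CYP81D1 (higher flank 84.8%, body 0.943%), CYP71A12 (higher flank 77.2%), CYP97A3 (higher flank 74.5%) and CYP702A5 (lower flank 73.9%, body 1.38%). The flank of CYP81D1 holds part of the pseudogene AT5G36223, and that of CYP97A3 part of the gene AFH14. Of 27 P450 flanks at 50% or more, that of CYP81D1 was the only one with part of a pseudogene locus (3.7%), beside 12% of such flanks of all genes. Pseudogene loci reached into 1 of 73 P450 flanks at 10 to 50% (1.37%, beside 2.58%) and into 13 of 338 flanks below 10% (3.85%, beside 1.91%). CYP81D11 was the only P450 gene with both flanks above 50% (51.0 and 54.9%), and its body was at 4.90%.

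**Figure D4:**
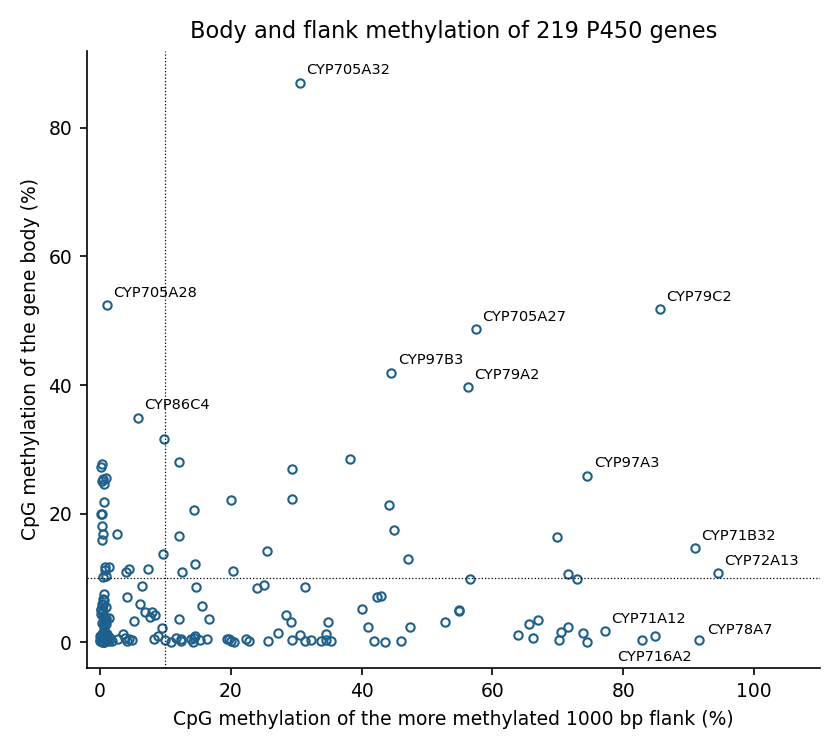
CpG methylation of the gene body (%, y axis) against that of the more methylated 1000 bp flank (%, x axis) for 219 P450 genes, each a circle. Dotted lines mark 10%. Genes at the lower right have a body below 10% and a methylated flank, such as CYP78A7 (0.359 and 91.5%), and CYP705A28 sits at the upper left (52.4 and 1.10%). A body below 10% with a flank at 50% or more occurred in 18 P450 genes (8.22%), beside 7.49% of all protein-coding genes.

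The P450 genes on the pathway lists were low for the most part. Pathway lists named 64 of the 219 genes, of which 10 had a body at 10% or more and 43 a body below 1%, with a median of 0.397%. Of the other 155 genes, 39 reached 10% and 58 lay below 1%, with a median of 3.07%. Over all protein-coding genes, 40.3% reached 10% and 39.2% lay below 1%. The lists do not hold every P450 gene with a known role. CYP79A2 (39.7%), CYP72A9 (17.4%) and CYP76C1 (3.53%) count among the other 155. The lists were drawn up with earlier results of these data known, so both medians are a description.

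The glucosinolate list had a median of 0.243%, and the list of camalexin and indole defence compounds one of 0.673% over 5 genes with a CYP symbol. CYP71A13 and CYP71A12 were the 2 highest of these 5. None of the 10 genes on the glucosinolate list reached 10%, beside 22.4% of P450 genes and 40.3% of all protein-coding genes. Below 1% were 9 of these 10, beside 46.1% of P450 genes and 39.2% of all protein-coding genes. CYP79A2, at 39.7% as given above, was not on this list although it makes a glucosinolate precursor. CYP79B2 and CYP79B3, which make indole-3-acetaldoxime from tryptophan, were at 0.219 and 0.26%, and CYP83B1, which carries the indole aldoxime into glucosinolates, at 0.0464% (4 of 8620 calls). CYP81F2, which modifies indole glucosinolates and is needed for antifungal defence, was at 0.0656% (7 of 10667 calls). The highest of the listed genes was CYP83A1, which acts on the aldoximes of aliphatic glucosinolates: its body was at 2.78% and its lower flank, part of which lies in AT4G13760, at 65.6%. Of the camalexin genes, CYP71A13, a main enzyme from aldoxime to nitrile, was at 6.74% with both flanks below 1%, and its close relative CYP71A12 was at 1.72% with 77.2% in the higher flank. PAD3 (CYP71B15), which completes camalexin and is not a member by its symbol, was at 0.578% with 74.9% in its higher flank. CYP82C2, which makes an indole cyanogenic compound, was at 0.616%, and CYP82C4, which acts in coumarin synthesis under iron deficiency, at 0.21%.

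Hormone genes with a CYP symbol ran from 0.154% to 25.5%. The abscisic acid hydroxylase genes CYP707A1, CYP707A2, CYP707A3 and CYP707A4 were at 0.236, 0.24, 0.485 and 0.187%. The genes for oxidation of jasmonoyl-isoleucine were as low, with CYP94B1 at 0.434%, CYP94B3 at 0.207% and CYP94C1 at 0.221%. The brassinosteroid genes CYP90D1 and CYP72C1 were at 0.55 and 0.154%. In contrast, CYP88A3, an ent-kaurenoic acid oxidase of gibberellin synthesis, was at 24.6% (23.7 to 25.5%) with flanks of 0.163 and 0.721%. CYP714A2 and CYP714A1, adjacent genes that inactivate gibberellins, were at 25.5% and 1.18%. The cytokinin hydroxylase genes CYP735A1 and CYP735A2 were at 16.9 and 0.358%, and CYP711A1 (MAX1), which acts in strigolactone synthesis, was at 21.3% with 44.3% in its higher flank. Close relatives thus stood far apart in 2 pairs of these lists.

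Among genes of general metabolism, the sterol demethylase gene CYP51G1 was at 27.2% (26.1 to 28.2%) with both flanks below 0.3%, while the sterol desaturase genes CYP710A1 to CYP710A4 lay between 0.134 and 0.675%. The carotenoid hydroxylase genes CYP97A3 and CYP97B3 were high, as given above. CYP98A3, which makes lignin precursors, was at 4.79%, and its pollen relatives CYP98A8 and CYP98A9, an array of their own, at 27.8 and 20.5%. Of 11 genes for cutin, suberin, wax and the pollen wall, 9 were below 1%, beside 46.1% of P450 genes and 39.2% of all protein-coding genes. Among these 9, CYP86A2 was at 0.159% (29 of 18269 calls), CYP86A1 at 0.159% and CYP86A4 at 0.0799%. The exceptions were CYP86A7 at 2.95% and CYP704B1, which acts in the pollen wall, at 25.3%, beside 0.332% in CYP703A2 of the same pathway. The 6 CYP78A genes, regulators of organ and seed size, all lay between 0.203 and 0.359%.

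**Figure D5:**
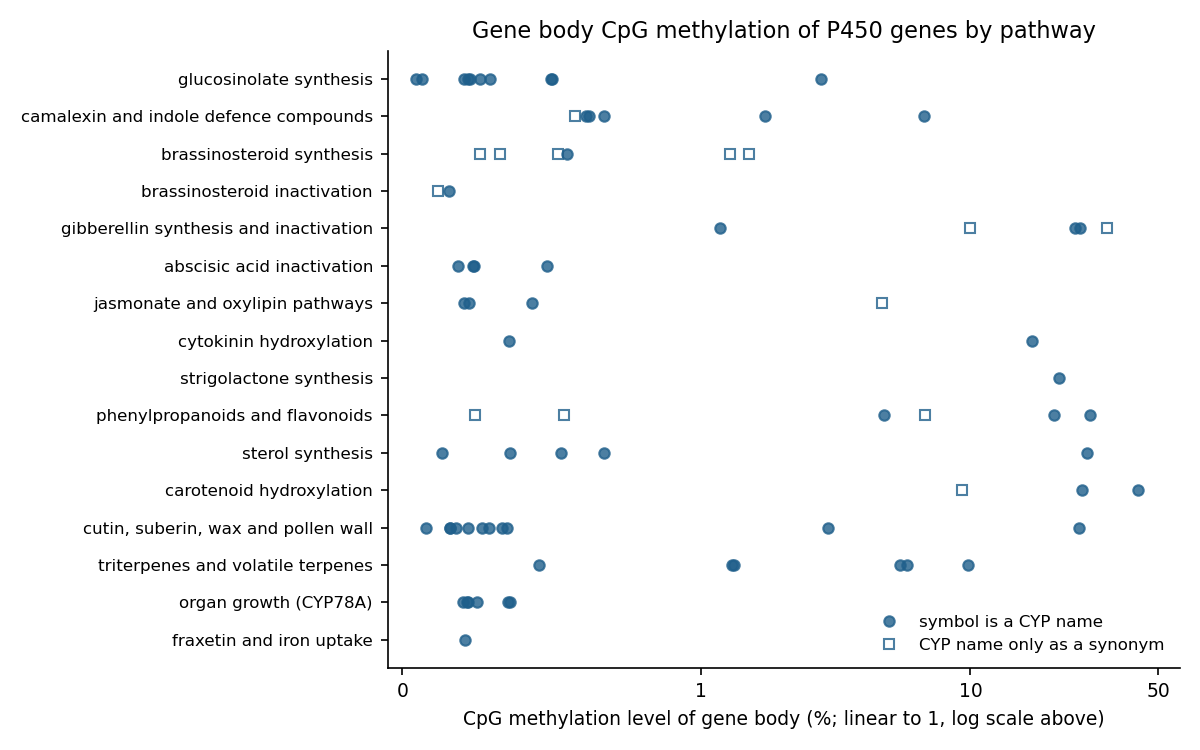
CpG methylation level of the gene body (%, x axis, linear to 1 and logarithmic above) of P450 genes by pathway (y axis). Filled circles are genes with a CYP symbol and open squares are P450 genes with a CYP name only as a synonym. The listed glucosinolate, abscisic acid and CYP78A genes lie at the left, with 2.78% the highest of them (CYP79A2, at 39.7%, is not on a list and not drawn), and both carotenoid genes with a CYP symbol lie above 25%.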

How the data were processed

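DNA of leaves was converted enzymatically, so that a C still read at a CpG counts as methylated. According to the paper's methods, the authors used Trimmomatic on the reads, Bismark with Bowtie 2 for alignment to TAIR10.1, kept unique reads, removed duplicates and trimmed biased ends. They deposited raw counts of methylated and unmethylated reads per CpG cytosine and strand, without normalization, pooled over libraries that are not stated. A cytosine was counted as covered if it held at least 5 reads. Regions with repeated sequence lose reads under unique alignment. Gene positions and symbols came from RefSeq for TAIR10.1.

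The level of a region was its methylated calls over all calls, with a 95% Wilson interval that treats calls of 1 read as independent and covers counting error only. Genes needed 5 covered cytosines. Medians over genes have 95% rank intervals. Members and gene lists were chosen with earlier results of these data known. Named are the 10 genes with the highest body, body-and-flank and single-flank level, the 5 with most calls among the lowest bodies, the 5 with the highest share at 25 to 75%, all genes of the largest array and of the array with the widest range, examples of each pathway list, P450 genes under other symbols and the P450 reductases. The CYP72A and CYP705A15 to CYP705A23 arrays, other spacers and genes named for intermediate cytosines were chosen after their values were seen, as were the runs of methylated cytosines. Calculations ran in Python 3.11.15 with pandas 2.3.3, numpy 2.4.6 and scipy 1.17.1, plots were drawn with matplotlib 3.10.9, and the code was tested on simulated data. Non-CpG contexts and single libraries were not analysed here.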

Additional observations from a re-analysis of the deposited data

How the results depend on the processing

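The P450 values were recomputed with a minimum of 10 reads, without the most deeply covered cytosines, with both strands summed, with the mean of the cytosines' levels, with P450 genes named by a synonym added, with other flank lengths, without flank bases in other genes, with levels of 5 and 20%, and with 0 or up to 5 genes between array neighbours. Of 58 recomputed values, 54 stayed within 1.5 times the count given or within the interval of the median or share given. All 58 are values of P450 genes alone. The comparison with all protein-coding genes was repeated only at the levels of 5 and 20%. Among these 54, the number of genes with a methylated flank was 58 without flank bases in other genes and 59 with flanks of 500 bp, in place of 87, and 71 bodies passed a level of 5%. The number of bodies past the level was 23 at 20%, in place of 49 at 10%. The median over body and flanks was 2.75% with flanks of 500 bp, in place of 3.95%. Chosen after seeing the data, the share of intermediate cytosines was 49.2% without the CYP705A28 to CYP705A33 array and 42.0% without the CYP72A and CYP705A15 to CYP705A23 arrays, in place of 45.9%, with fewer genes by construction. No paired analysis was possible because the table is pooled and carries no replicate. At a median of 58 reads, single cytosines are imprecise, and the condition of the pool is unknown.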

Other observations

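The P450 genes outside the naming rule gave these values. Of the 15 with a CYP name only as a synonym, the gibberellin synthesis gene GA3, an ent-kaurene oxidase, had the highest body level at 32.3% (31.1 to 33.5%), and KAO2, the second ent-kaurenoic acid oxidase gene, was at 9.94%. The brassinosteroid synthesis genes BR6OX1, BR6OX2, CPD, DWF4 and ROT3 lay between 0.259 and 1.502%, with 41.8% in the higher flank of BR6OX1 and 34.6% in that of BR6OX2, and BAS1, which inactivates brassinosteroids, was at 0.118%. Of the phenylpropanoid genes, C4H was at 6.79%, FAH1 at 0.541% and TT7 at 0.242%. The carotenoid gene LUT1 was at 9.30%, HPL1 of oxylipin metabolism at 4.71%, UNE9 at 0.303%, and the jasmonate synthesis gene AOS at 0.346%. CYP718, whose symbol lacks a letter, was at 10.8% (9.85 to 11.9%). The P450 reductase genes ATR1 and ATR2, which supply electrons to these enzymes, were at 30.3 and 17.0%.

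The 12 P450 loci listed as pseudogenes ran from 0.0756% in CYP71B18 to 53.5% (52.2 to 54.8%) in CYP51G2, whose lower flank was at 94.2%. CYP51G1, the protein-coding gene of that subfamily, was at 27.2% with unmethylated flanks. The 5 protein-coding genes with a symbol ending in P ran from 0.354% in CYP96A14P to 89.4% (87.9 to 90.8%) in CYP79A4P. CYP76C8P had at least 5 reads at only 23 of 132 cytosines, so its level of 0.28% rests on part of the locus.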
